A study of Rattus norvegicus with 31 samples.

Results

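Mitochondria carry a ribosome of their own, which translates the few proteins still encoded in mitochondrial DNA, all of them parts of the respiratory chain and the ATP synthase. Its RNAs come from mitochondrial DNA, while its proteins are encoded in the nucleus as Mrpl (large subunit) and Mrps (small subunit) genes, made in the cytosol and imported. Some of these proteins descend from bacterial ribosomal proteins, and others are found in mitochondria alone. The transcripts of these genes were followed here in PBMC of adult rats, that is in peripheral mononuclear blood cells such as lymphocytes and monocytes. Members were all array probes whose gene name is Mrpl or Mrps followed by a number, in any case, which gave 84 probes of 71 genes among the array's 41012 probes. The large subunit had 51 probes of 44 genes and the small subunit 33 probes of 27 genes.

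The study asked what caloric restriction of pregnant rats leaves in their adult offspring, and whether leptin given to the pups changes it. Mated rats (16 in number) either ate freely or received 20% less food on days 1 to 12 of pregnancy. Offspring of unrestricted dams, called WT in the sample titles and controls in the protocol, and of restricted dams (CR) were suckled normally, while CR-L pups of restricted dams were also given leptin until postnatal day 21, in daily doses from 1.0 to 43.8 ng, or 5 times what milk supplies. After 4 months on chow, blood was drawn from 7 WT, 11 CR and 13 CR-L animals. Offspring were of both sexes per the protocol, but no sex or litter is given per sample, and WT is here a diet group. The 31 animals had no more than 16 mothers, so siblings must be among them, and p-values that treat them as independent could be too small. Each array held 1 sample in red and a reference pool of 5 samples per group in green, and every value below is a log2 ratio of sample over pool, or a difference of group means of such ratios with its SE. The 3 comparisons share arrays, and both comparisons with WT share the same 7 WT arrays.

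The median red intensity of an array was 69.8 to 93.9, apart from 235.3 on the array of WT replicate 6. Of the member probes, 82 were well above background on all 31 arrays. The exceptions were 1 of the 2 Mrps2 probes (27 arrays) and 1 of the 2 Mrps21 probes (30 arrays). All 84 passed the filter of 7 arrays that left 26721 probes for the tests. Markers of T cells, B cells, NK and cytotoxic cells, monocytes, red cells and platelets were well above background on all arrays at every probe tested, and those of granulocytes at 4 of 7 probes. Mean marker ratios ranged from -0.27 to 0.19 in WT, -0.14 to 0.21 in CR and -0.19 to 0.38 in CR-L for T cells, from -0.51 to 0.23, -0.93 to 0.45 and -0.88 to 0.335 for B cells, and from -1.29 to 0.33, -2.23 to 1.07 and -2.43 to 1.66 for red cells. Against WT, 7 of 7 T cell probes were higher in CR and 6 of 7 in CR-L, and 6 of 7 and 7 of 7 B cell probes were lower, none past the threshold. NK probes were higher in 5 of 5 in both groups. Monocyte probes were lower in 7 of 7 in CR and 5 of 7 in CR-L, and red cell probes were lower in 5 of 5 in CR and higher in 5 of 5 in CR-L, again with none past the threshold. Granulocyte probes were lower in 6 of 7 in both groups (median differences -0.351 in CR and -0.287 in CR-L), and platelet probes were higher in 5 of 5 in CR (median 0.42) and in 2 of 5 in CR-L (median -0.042), none past the threshold either. In a blood sample, fewer cells of a type and less RNA per cell cannot be told apart, and the part of cell makeup in the differences below was not tested.

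Differences between the groups were small, and those past the threshold lay between CR-L and WT. Of the 84 member probes, 6 were higher and 1 was lower in CR-L than in WT (limma with Benjamini-Hochberg adjustment over all 26721 probes, adjusted p under 0.05). That is 8.33% of members beside 3.48% of all probes tested (2.04% higher and 1.44% lower). The excess over all probes depended on the processing: members and all probes came to 2.38% and 2.37% with only CR-L and WT in the fit, 2.38% and 2.55% with the authors' series table, 3.57% and 3.24% with the red channel alone, and 0% and 0.367% with median centring in place of loess. Without WT replicate 2, 4 or 5, 2 of 84 members passed, beside 1.94%, 1.86% and 2.02% of all probes. The higher ones were Mrps14, Mrps12 and Mrps34 of the small subunit and Mrpl12, Mrpl14 and Mrpl41 of the large one, by 0.16 to 0.26 or 1.12- to 1.2-fold, and the lower one was a probe of Mrpl35. Between CR and WT, 0 member probes passed beside 0.483% of all probes, and between CR-L and CR 0 passed beside 0% of all. No member had WT and CR, or WT and CR-L, ranges without overlap, beside 0.142% and 0.18% of all probes.

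Taken without adjustment, members were more often higher than lower against WT. At an unadjusted p under 0.05, 24 probes were higher and 6 lower in CR-L than in WT (35.7% of members beside 16.5% of all probes, of which 9.18% higher and 7.29% lower), and 16 were higher and 2 lower in CR than in WT (21.4% beside 12.2%, of which 7.38% higher and 4.8% lower). Between CR-L and CR the count was 0, beside 2.22% (1.12% higher and 1.1% lower). The median difference of the large subunit was 0.029 for CR and 0.032 for CR-L, and that of the small subunit 0.054 and 0.038, beside medians over all probes of 0.011 and 0.0094. These 4 medians were above 0 under every alternative processing tried. Some settings could not change that. Quantile normalization of the mean intensities after loess and the fit of only the 2 groups leave the differences as they were. Median centring moved the median over all probes to 0.067 in CR and 0.069 in CR-L. Differences were above 0 for 64.3% of members in CR (54 of 84, beside 55.2% of all probes) and 66.7% in CR-L (56 of 84, beside 54.2%), which left 30 and 28 member probes below WT. Averaged over its 33 probes in each array, the small subunit was at -0.0815 to -0.034 in WT, -0.107 to 0.042 in CR and -0.080 to 0.129 in CR-L, with means of -0.056, -0.0013 and 0.0041. These averages include Mrps21 A_44_P544995, at 4.49 in CR-L replicate 9 and -0.82 in CR-L replicate 5, which weighs on the CR-L range and mean. The medians of the array averages were -0.054 in WT, 0.0081 in CR and -0.012 in CR-L. The large subunit was at -0.064 to 0.0078, -0.0995 to 0.059 and -0.038 to 0.064, with means of -0.0275, 0.000205 and 0.0055. The WT arrays lay at the lower side of either range, inside that of CR. The plot of all member probes shows both subunits spread to either side of WT.

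**Figure D1:**
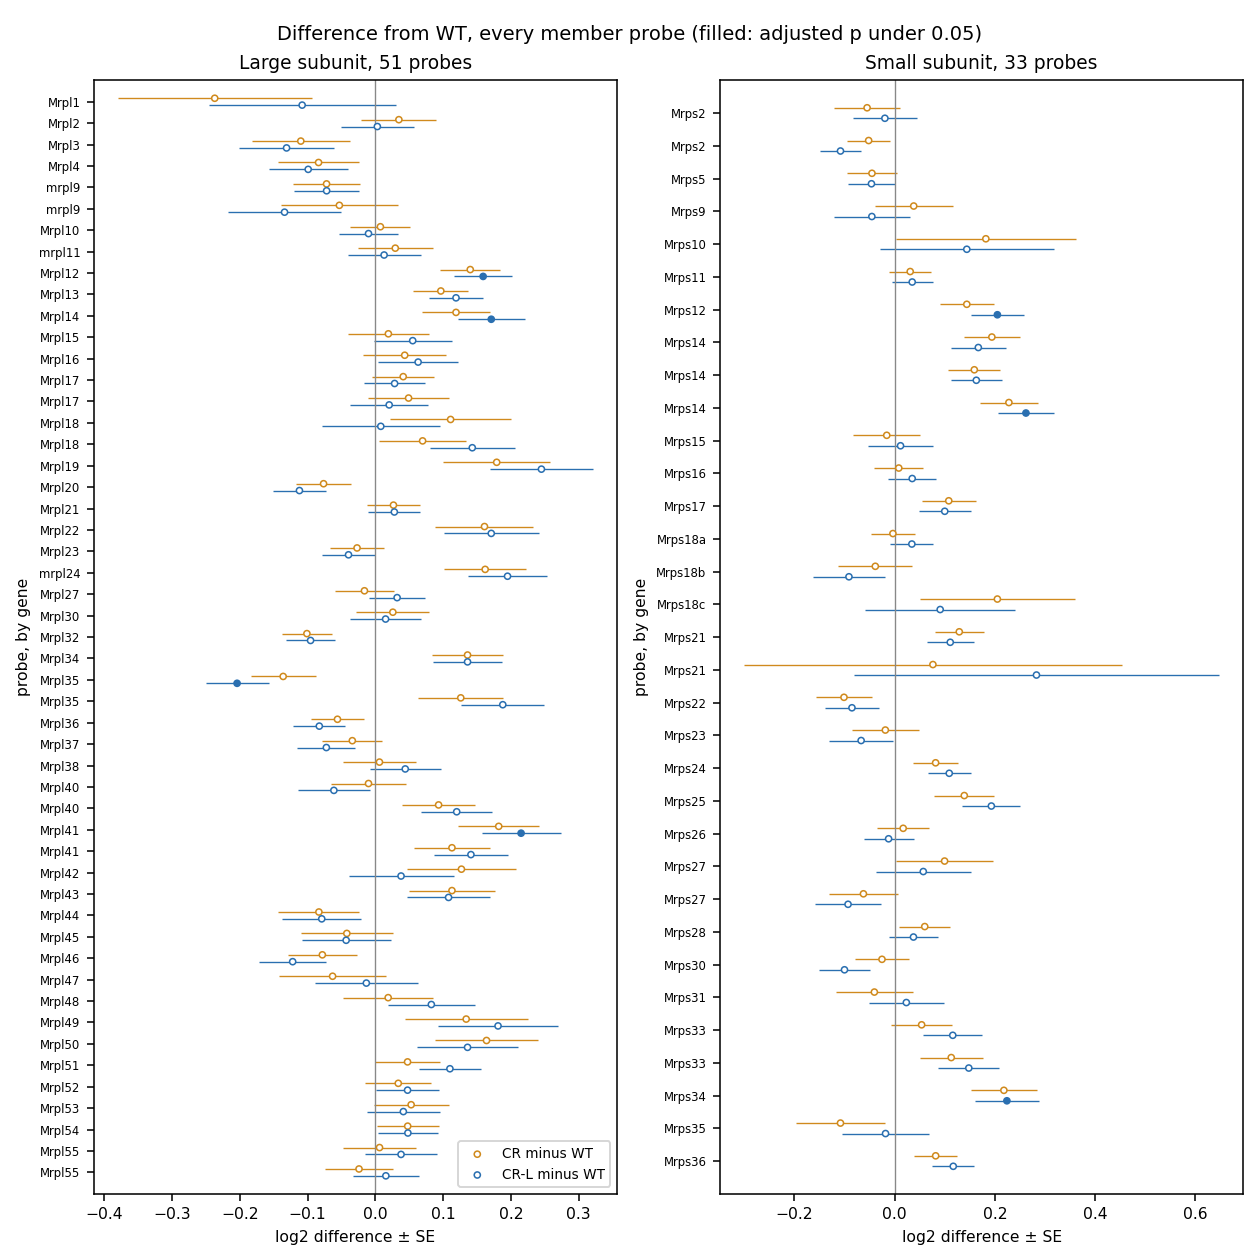
Each row is 1 member probe, large subunit at left (51 probes) and small subunit at right (33 probes), with the log2 difference of CR (orange) and CR-L (blue) from WT on the x axis and bars of 1 SE. Filled points have an adjusted p under 0.05: 7 CR-L differences are filled, 6 of them to the right of 0, and no CR difference is.

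Mrps14, a protein of the small subunit's head with a bacterial counterpart, had the smallest p of all members. At its probe A_44_P700164 the WT arrays lay between -0.32 and -0.019 (median -0.155), CR between -0.21 and 0.25 (0.086) and CR-L between -0.054 and 0.26 (0.069). WT sat low and the CR and CR-L values lay over one another, with CR replicate 1 at -0.21 down among the WT values. The difference from WT was 0.26 ± 0.056 in CR-L (adjusted p = 0.0058) and 0.23 ± 0.057 in CR (adjusted p = 0.0595). Without WT replicate 1, CR replicate 1, CR-L replicate 5 or CR-L replicate 10 the CR difference passed too, with adjusted p-values of 0.041, 0.0188, 0.0413 and 0.0467. Within the 7 slides that hold a WT array, CR-L exceeded WT on 7 of 7 and CR on 6 of 7. Here and below, slide counts of called probes use the arrays that gave the call, so they are no separate support. Mrps14 has 2 further probes, and neither passed. A_44_P104250 differed from WT by 0.19 ± 0.057 in CR and 0.17 ± 0.055 in CR-L (adjusted p = 0.102 and 0.0878), and A_44_P289424, named here because it has a single open frame and is shown with its sequence, by 0.16 ± 0.052 and 0.16 ± 0.050 (0.153 and 0.0661). All 3 lie on the forward strand of chromosome 13 in the rat build rn4, where A_44_P700164 is the last of them, 267 bases beyond A_44_P104250, and has no open frame.

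The probes are 60 bases long, and a few are shown so that what was hybridised can be seen. The capitals mark the whole codons of the only reading frame without a stop, and sequences with more than 1 such frame are in lower case throughout. Mrps14 is read at chr13:75619655-75619714 on the forward strand, Mrps21 at chr2:190646275-190646334, Mrps10 at chr9:9077319-9077378, Mrpl14 at chr9:10901976-10902035 and Mrpl41 at chr3:5120526-5120585, the last 4 on the reverse strand.
Mrps14 A_44_P289424: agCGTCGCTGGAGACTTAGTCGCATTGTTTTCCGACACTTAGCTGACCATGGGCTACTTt
Mrps21 A_42_P494612: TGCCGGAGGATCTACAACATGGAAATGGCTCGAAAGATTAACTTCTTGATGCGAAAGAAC
Mrps10 A_44_P288015: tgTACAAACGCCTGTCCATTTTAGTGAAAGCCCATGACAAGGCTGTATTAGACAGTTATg
Mrpl14 A_44_P133611: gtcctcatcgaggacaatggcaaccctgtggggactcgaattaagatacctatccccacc
Mrpl41 A_44_P166482: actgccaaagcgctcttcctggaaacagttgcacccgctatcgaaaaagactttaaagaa

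Mrps12, the counterpart of the bacterial protein at the decoding centre, was the second small-subunit member past the threshold. Its WT values ran from -0.33 to 0.035 (median -0.22), CR from -0.16 to 0.115 (-0.035) and CR-L from -0.24 to 0.24 (0.036). Most WT arrays lay below most others, except WT replicate 7 at 0.035, and CR-L replicate 10 at -0.24 lay among the WT values. CR-L exceeded WT by 0.205 ± 0.052 (adjusted p = 0.0228), on 6 of 7 slides, and CR by 0.14 ± 0.054 (adjusted p = 0.239). The CR-L call ended without WT replicate 2, 4, 5 or 6, with adjusted p-values of 0.0773, 0.0669, 0.0566 and 0.0538.

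Mrps34, found in mitochondria alone and needed for a stable small subunit, differed from WT by nearly the same amount in both groups. Its WT arrays ranged from -0.49 to -0.076 (median -0.20), CR from -0.196 to 0.088 (0.0017) and CR-L from -0.26 to 0.36 (-0.0023). WT replicate 4 was lowest of all 31 and CR-L replicate 5 highest. CR-L was higher by 0.22 ± 0.063 (adjusted p = 0.0419) and CR by 0.22 ± 0.065 (0.111), each on 7 of 7 slides. Leaving out any of 11 single arrays ended the CR-L call, and without WT replicate 4 the difference was 0.18 (adjusted p = 0.147).

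Among large-subunit members, Mrpl12 forms the stalk that receives the translation factors and has also been described as a partner of the mitochondrial RNA polymerase. Its values were -0.155 to 0.063 in WT (median -0.018), 0.0043 to 0.18 in CR (0.083) and -0.0079 to 0.375 in CR-L (0.093). CR-L replicate 5 was the highest array, and no CR array lay below 0. CR-L was higher than WT by 0.16 ± 0.043 (adjusted p = 0.0312) and CR by 0.14 ± 0.044 (0.133), each on 7 of 7 slides. Without WT replicate 2, 4 or 5 the CR-L call was lost (adjusted p = 0.0914, 0.0695 and 0.0914).

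Mrpl41, a protein of the mitochondrial large subunit with no bacterial counterpart, ranged at probe A_44_P1019454 from -0.29 to -0.087 in WT (median -0.19), -0.149 to 0.17 in CR (0.0042) and -0.23 to 0.296 in CR-L (0.026). The CR-L arrays covered the widest range, and CR-L replicates 4, 10 and 13 and CR replicates 1 and 9 lay within the WT range. CR-L exceeded WT by 0.215 ± 0.058 (adjusted p = 0.0326) and CR by 0.18 ± 0.060 (0.163). On slides, CR-L exceeded WT on 6 of 7 and CR on 7 of 7. Leaving out WT replicate 2, 3, 4 or 5 or CR-L replicate 2, 3, 7 or 12 ended the CR-L call, with adjusted p-values up to 0.0958. The second probe, A_44_P166482, whose sequence stands above, differed from WT by 0.14 ± 0.054 in CR-L (adjusted p = 0.159).

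Mrpl14 lies on the face of the large subunit that meets the small one. WT arrays ranged from -0.24 to -0.037 (median -0.18), CR from -0.18 to 0.116 (-0.0038) and CR-L from -0.13 to 0.20 (0.0345). Between WT and CR the ranges overlapped over much of their length. The CR-L difference was 0.17 ± 0.049 (adjusted p = 0.0451), above 0 on 7 of 7 slides, and the CR difference 0.12 ± 0.051 (0.324). This call was the least stable of the 7: it held in 16 of 31 fits that each left out 1 array, with adjusted p-values up to 0.116. Mrpl24 (mrpl24 in the file), a large-subunit protein with a bacterial counterpart, came next within the large subunit without passing, at 0.195 ± 0.059 in CR-L (adjusted p = 0.0576) and 0.16 ± 0.061 in CR (0.237). It passed without WT replicate 3, CR-L replicate 5 or CR-L replicate 10 (adjusted p = 0.0487, 0.0443 and 0.04). In the small subunit the next was Mrps25, a protein found in mitochondria alone and named after its values were seen, at 0.19 ± 0.058 in CR-L (adjusted p = 0.0567) and 0.14 ± 0.060 in CR (0.326).

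**Figure D2:**
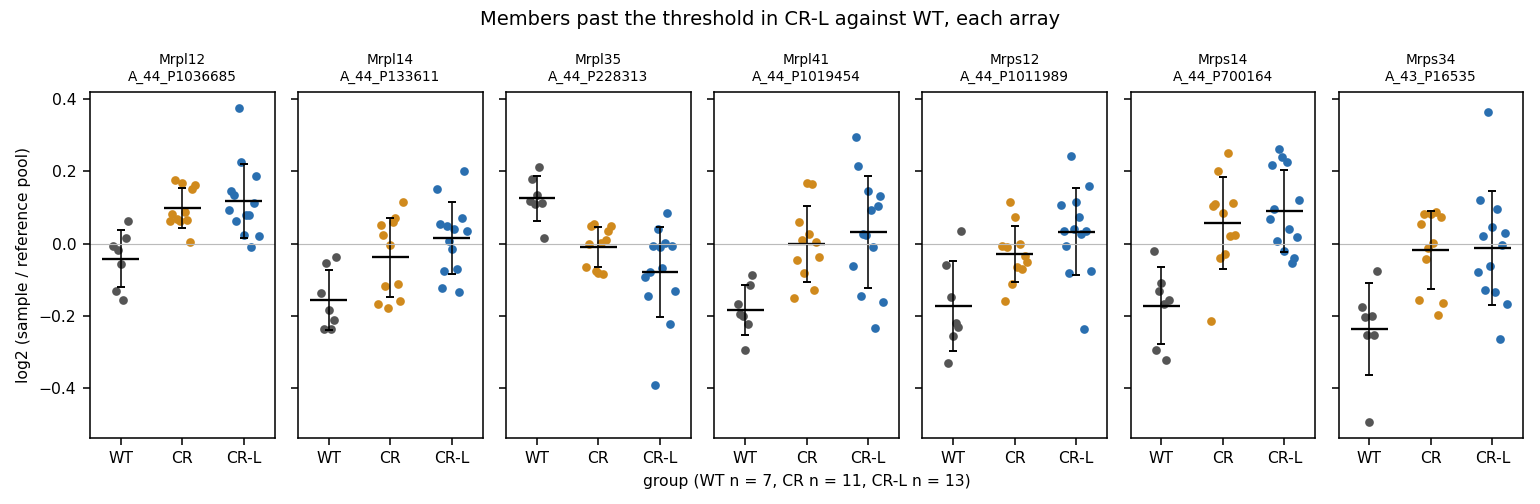
The log2 ratio of sample over pool is on the y axis for the 7 member probes past the threshold in CR-L against WT, with 1 point per array in WT (n = 7), CR (n = 11) and CR-L (n = 13), and the mean ± SD as bars. WT points sit low for 6 probes and high for Mrpl35, and CR points lie with the CR-L points while every panel shows overlap with WT. The probes were chosen by CR-L against these WT arrays, which by itself favours this placing of WT and CR.

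Mrpl35, a small protein of the large subunit with a bacterial counterpart, was the only member past the threshold in the lower direction. At A_44_P228313 the WT arrays ran from 0.017 to 0.21 (median 0.117), CR from -0.085 to 0.0545 (0.0013) and CR-L from -0.39 to 0.084 (-0.067). Apart from WT replicate 7 at 0.017, each WT array lay above every CR and CR-L array, and CR-L replicate 5 was lowest. CR-L was lower than WT by a difference of -0.204 ± 0.046 (adjusted p = 0.0102) and CR by -0.136 ± 0.048 (adjusted p = 0.2). CR-L was below WT on 7 of 7 slides and CR on 6 of 7. Together with Mrps14 A_44_P700164, this call held in all 31 fits that each left out 1 array.

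The second Mrpl35 probe, A_44_P671449, went the other way. Its WT values ran from -0.19 to 0.165 (median -0.034), CR from -0.0225 to 0.24 (0.093) and CR-L from 0.0165 to 0.60 (0.107), and CR-L replicate 5 was this time highest. CR-L exceeded WT by 0.19 ± 0.061 (adjusted p = 0.0832) and CR by 0.13 ± 0.063 (0.425), although with all arrays scaled to a common median absolute log ratio, an alternative added after the data were seen, the CR difference was -0.000124. Without WT replicate 1 the CR-L difference passed at 0.22 (adjusted p = 0.0456). The probes differ in where they lie. A_44_P228313 spans 4022 bases on the reverse strand (chr4:105106986-105111007, rn4) for a probe of 60, so that it joins separate stretches of the genome. A_44_P671449 is read from 60 adjoining bases (chr4:105103419-105103478), 3507 bases further along the same strand. It holds a direct repeat, shown second, that starts at its positions 5 and 41 counted from the 5′ end, the only repeat of 10 or more bases found in a member probe.
Mrpl35 A_44_P228313: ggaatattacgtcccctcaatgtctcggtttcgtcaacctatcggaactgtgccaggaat
Mrpl35 A_44_P671449, the repeat: atgacagtcatcacta

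Over the 31 arrays, the Mrpl35 probes ran against each other (Pearson's r = -0.678, Spearman's rho = -0.452, permutation p = 0.00015 and 0.0115, 0.00035 and 0.0231 after adjustment over 14 pairs). Without the 2 arrays farthest from the median r was -0.537, without CR-L replicate 5 it was -0.482, and with the group means removed -0.532. Within groups it was -0.658 in CR-L (n = 13), -0.403 in WT (n = 7) and -0.13 in CR (n = 11). In all, 12 member genes have more than 1 probe, which gives 14 pairs on the same gene, and 7 of these correlated with an adjusted p under 0.05 by permutation. Mrpl35 was the only negative one among these 7. Mrpl41 (r = 0.881), Mrpl17 (0.833), Mrpl55 (0.808) and the 3 pairs of Mrps14 (0.824, 0.661 and 0.59) were positive, all between probes at most 452 bases apart. The Mrpl9 pair (mrpl9 in the file) was also below 0 without passing (r = -0.295, permutation p = 0.106, adjusted 0.149, Spearman's rho = 0.0554). Its r was -0.507 in CR, -0.552 in CR-L and 0.446 in WT. Without CR-L replicate 5 it was 0.148 over the arrays. The Mrps14 probe past the threshold tracked the others in CR (r = 0.867 and 0.605) more than in CR-L (0.149 and 0.101) or WT (0.168 and 0.163). These differences were not tested. Both probes of a pair share their arrays and the normalization.

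**Figure D3:**
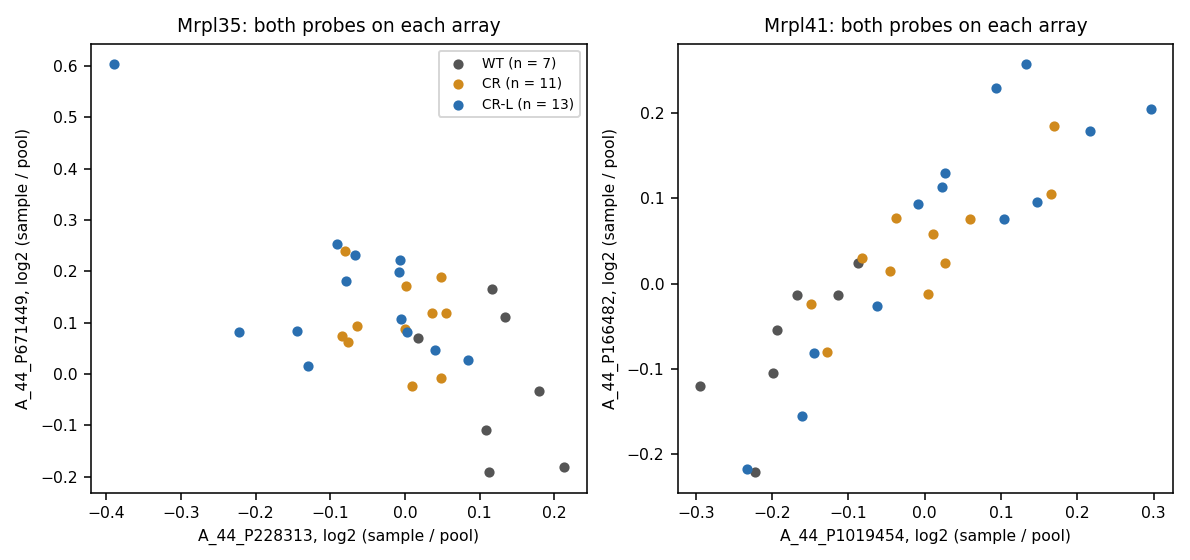
Each point is 1 of the 31 arrays, coloured by group, with the log2 ratio (sample over pool) of the gene's first probe on the x axis and of its second on the y axis, for Mrpl35 at left and Mrpl41 at right. The Mrpl35 points fall from upper left, where CR-L replicate 5 lies at -0.39 and 0.60, to lower right, and the Mrpl41 points rise.

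Mrpl40, a mitochondrial protein of the large subunit's central protuberance, also had probes of opposite sign. A_44_P869196 was higher in CR-L than WT by 0.12 ± 0.0525 (adjusted p = 0.229), while A_42_P719101 differed by -0.061 ± 0.053 (0.627), a sign that turned to 0.057 under median centring, 0.038 under common scaling and 0.104 with the red channel alone. The medians over all probes in these settings were 0.069, 0.0198 and 0.0187. The Mrpl40 probes lie 2776 bases apart, and their correlation over the arrays was weak (Pearson's r = 0.157, permutation p = 0.4, Spearman's rho = -0.0163, permutation p = 0.931). The probes of Mrps27, a small-subunit protein, differed in sign as well, at 0.057 ± 0.094 and -0.093 ± 0.067 in CR-L and 0.0997 ± 0.097 and -0.062 ± 0.069 in CR, as did those of Mrpl55 in CR (0.0062 ± 0.054 and -0.024 ± 0.050). None of these Mrps27 and Mrpl55 differences had an unadjusted p under 0.05, whereas Mrpl40 A_44_P869196 did in CR-L (limma, p = 0.0284).

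Other members below WT did not pass. Mrpl20, related to a bacterial assembly protein of the large subunit, ranged from 0.069 to 0.21 in WT (median 0.17), -0.079 to 0.22 in CR (0.086) and -0.071 to 0.16 in CR-L (0.052), a difference of -0.112 ± 0.040 for CR-L (adjusted p = 0.122). Mrpl32, which is matured by a protease of the inner membrane before it joins the large subunit, was at -0.0465 to 0.13 in WT (median 0.0044), -0.14 to 0.0045 in CR (-0.082) and -0.23 to 0.060 in CR-L (-0.077). Its differences were -0.101 ± 0.037 in CR (adjusted p = 0.225) and -0.096 ± 0.036 in CR-L (0.146). Mrps2 A_44_P606810, a small-subunit protein with a bacterial counterpart, differed by -0.108 ± 0.042 in CR-L (adjusted p = 0.163). Its second probe, A_44_P180452, differed by -0.019 ± 0.064 (adjusted p = 0.926). Under median centring in place of loess the CR-L differences were above 0 for Mrpl20 (0.080), Mrpl32 (0.095) and Mrps2 A_44_P606810 (0.071). The median over all probes was then 0.069, so these values include a shift of the whole array.

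CR-L and CR did not separate at any member. The differences ran from -0.114 to 0.21 with a median SE of 0.047, 47 of 84 were above 0 (56% beside 46.6% of all probes), all 84 adjusted p-values were 1 and none had an unadjusted p under 0.05. The highest, 0.207 ± 0.319 at Mrps21 A_44_P544995, rests on CR-L replicate 9, which was at 4.49 there. For the 7 probes called against WT, CR-L minus CR was 0.034 ± 0.049 at Mrps14, 0.062 ± 0.046 at Mrps12, 0.0057 ± 0.055 at Mrps34, 0.019 ± 0.037 at Mrpl12, 0.0335 ± 0.051 at Mrpl41, 0.052 ± 0.043 at Mrpl14 and -0.068 ± 0.041 at Mrpl35. The probes were chosen by their CR-L difference from WT, which uses the same CR-L arrays, so nothing is read from the signs. That none passed does not show that the groups are alike. Large and small subunit medians were 0.0013 and 0.0040, beside -0.0044 for all probes.

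The arrays lay on 8 slides, 7 of which held 1 WT array each beside CR and CR-L arrays, and the eighth held CR replicate 11 and CR-L replicates 12 and 13. Within slides, the median of the small-subunit probes was higher in CR-L than in WT on 7 of 7 slides, by 0.00093 to 0.10, and that of the large subunit on 5 of 7, from -0.036 to 0.075. For CR it was 6 of 7 for either, from -0.049 to 0.13 in the small and from -0.089 to 0.083 in the large subunit. The median of all probes was above 0 on 3 of 7 slides for CR-L and 5 of 7 for CR. On the slide of WT replicate 7, the small-subunit median of CR-L (0.00093) lay below that of all probes (0.0157). There the CR medians of large and small subunit (0.0146 and 0.0141) also lay below that of all probes (0.0194). With slide as a fixed block, 6 member probes passed in CR-L against WT (7.14% beside 3.7% of all probes), and with slide as a random block 7 did (8.33% beside 3.65%).

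**Figure D4:**
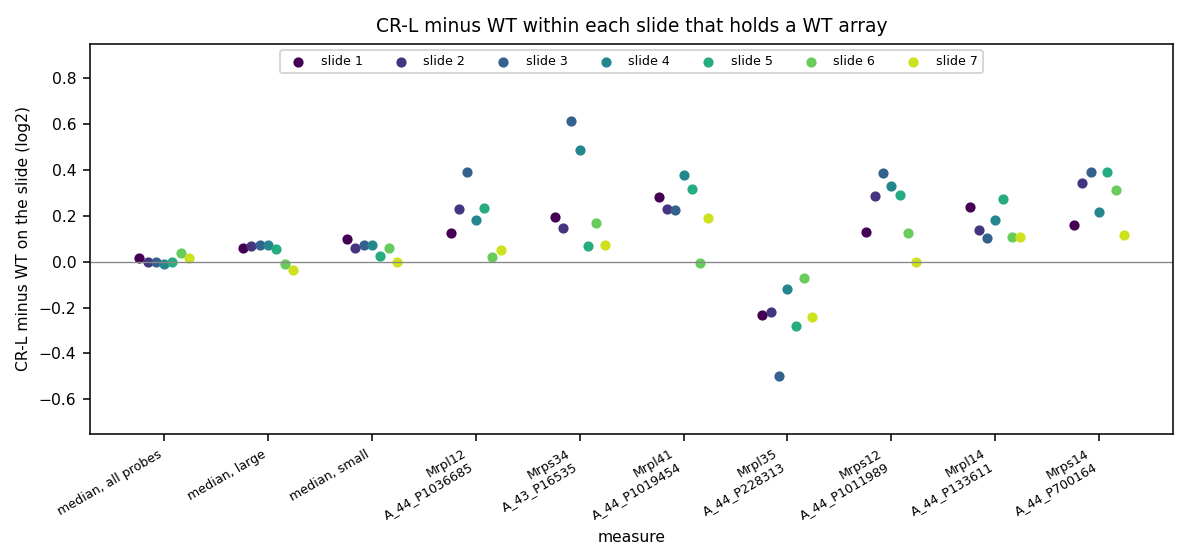
The y axis gives the mean of the CR-L arrays minus the WT array on the same slide (log2), 1 point for each of 7 slides, for the median of all probes, of the large and of the small subunit, and for the 7 probes past the threshold. Mrpl35 lies below 0 on every slide, while Mrps14, Mrpl14, Mrpl12 and Mrps34 lie above it on every slide. The 7 probes were chosen by CR-L against WT on these same arrays.

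At the median, member probes varied somewhat less from animal to animal than all probes tested, and small-subunit probes nearly as much. The sets were not matched for intensity. The SD of a probe over the 31 arrays had a median of 0.119, beside 0.14 for all probes tested, and was 0.117 in the large and 0.134 in the small subunit. The steadiest were Mrpl21 (SD 0.069) and Mrpl23 (0.072), the latter at the exit of the protein tunnel, in the large subunit, and Mrps11 (0.077) and Mrps18a (0.083) among those named Mrps. Across groups, Mrpl21 stayed between -0.24 and 0.033 and Mrpl23 between -0.084 and 0.18. Mrps18a is placed in the large subunit of the assembled ribosome, as is Mrps30, in spite of their names.

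The widest spreads belonged to single probes. Mrps10, with a bacterial counterpart in the small subunit's head, varied with an SD of 0.39 and covered -0.47 to 0.31 in WT, -0.46 to 0.69 in CR and -0.495 to 0.895 in CR-L. Mrpl1, of the stalk where spent tRNA leaves, had an SD of 0.315 (-0.25 to 0.27, -0.62 to 0.106 and -0.735 to 0.71), and Mrpl49, of the large subunit in mitochondria alone, 0.20 (-0.32 to 0.071, -0.24 to 0.297 and -0.395 to 0.41). All 3 spread within each group. Mrps21 A_44_P544995 was different, with an SD of 0.81 that rests on 2 arrays: CR-L replicate 9 at 4.49 and CR-L replicate 5 at -0.82, while the other 29 lay between -0.16 and 0.39. By its rn4 coordinates this probe is on the strand opposite to the gene's other probe, shown above, 64 bases away. That other probe covered -0.28 to -0.105 in WT, -0.194 to 0.035 in CR and -0.26 to 0.146 in CR-L, and no correlation of the pair was detected (Pearson's r = 0.08, permutation p = 0.729). The 2 probes of Mrps33 are also on opposite strands.

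Split by descent, with Mrps18a and Mrps30 counted in the large subunit, small-subunit proteins with a bacterial counterpart (18 probes) had a median difference from WT of 0.079 in CR and 0.096 in CR-L, with 14 of 18 above 0 in each. Those found in mitochondria alone (12 probes) had -0.00071 and 0.0057, with 6 of 12 above 0 in each. In the large subunit the medians were 0.026 and 0.0155 with a bacterial counterpart (33 probes) and 0.041 and 0.046 without (20 probes). The difference between these sets was not tested. Mrps36, counted among the small-subunit members by its name, is now called Kgd4 and is a subunit of the 2-oxoglutarate dehydrogenase of the citric acid cycle. Its probe was at -0.031 to 0.23 in WT, 0.059 to 0.31 in CR and 0.084 to 0.34 in CR-L, a difference from WT of 0.117 ± 0.042 in CR-L (adjusted p = 0.123).

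Proteins of the same ribosome that carry other names had no probe past the threshold (0 of 8, with 4 above and 4 below WT in CR-L). Gadd45gip1 of the large subunit was highest for its error, at 0.15 ± 0.051 in CR-L (adjusted p = 0.0899). Mrpl57, listed on the array as Mrp63, belongs neither to the members nor to these 8 probes, and had both probes below WT, by -0.126 ± 0.044 and -0.107 ± 0.043 in CR (adjusted p = 0.2 and 0.284). Against WT in CR-L, these Mrpl57 probes were at -0.100 ± 0.043 and -0.084 ± 0.0415 (adjusted p = 0.222 and 0.307). Both genes were singled out after their values were seen.

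Further genes of mitochondrial translation moved in part, and their shares stand beside 3.48% of all probes called in CR-L against WT. How the calls of these lists depend on the processing was not examined. Of 26 probes for ribosome assembly and rRNA modification, 1 rose and 4 fell in CR-L against WT (19.2%). Those that fell were a pair of Mrm3 probes (Rnmtl1 on the array, a methyltransferase of the large rRNA) by -0.31 ± 0.061 and -0.23 ± 0.062 (adjusted p = 0.00325 and 0.0284), Fastkd2, an RNA-binding protein of the same assembly, by -0.28 ± 0.068 (0.0176), and Ngrn, which takes part in modifying the large rRNA, by -0.26 ± 0.068 (0.0262). Mterf3 (Mterfd1 on the array), a regulator of ribosome assembly, rose by 0.24 ± 0.047 in CR-L (adjusted p = 0.00302) and 0.21 ± 0.049 in CR (0.0447). Of 22 probes for mitochondrial tRNA synthetases, 2 rose in CR-L (9.09%): Ears2, which charges the tRNA for glutamate, by 0.36 ± 0.079 (0.00752), and Pars2, for proline, by 0.32 ± 0.091 (0.0414). A second Pars2 probe differed by -0.025 ± 0.0475 (0.858). Ears2 also rose in CR by 0.345 ± 0.082 (0.0447).

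Of 10 probes for mitochondrial transcription, 3 rose in CR-L (30% beside 3.48% of all probes): both probes of Mterf1 (Mterf on the array), a transcription terminator, by 0.25 ± 0.053 and 0.23 ± 0.049 (adjusted p = 0.0058 and 0.00629), and Tfb2m, which helps the polymerase start, by 0.18 ± 0.0485 (0.0288). The first Mterf1 probe also rose in CR by 0.24 ± 0.055 (0.0365). None of 18 translation factor probes passed in limma, with 1 higher and 1 lower at an unadjusted p under 0.05 in CR-L. The medians in CR-L were 0.012 for assembly, 0.011 for synthetases, 0.069 for transcription and -0.0165 for translation factors.

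**Figure D5:**
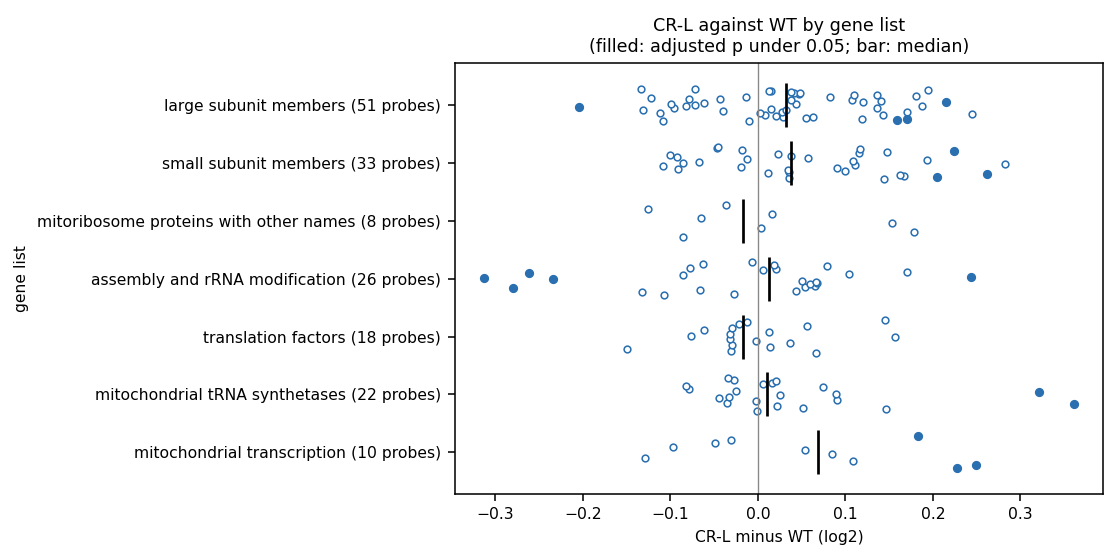
The x axis is the log2 difference of CR-L from WT and each point is 1 probe of the gene list named on the y axis, filled where the adjusted p was under 0.05, with a bar at the median. Filled points lie to the right of 0 for 6 members and for synthetases and transcription, and 4 of 5 lie to the left for assembly and rRNA modification.

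Cytosolic ribosomal proteins and the respiratory chain were set beside the members, without a test between them. Cytosolic ribosomal proteins, which translate nuclear messages, had a median of -0.101 in CR-L against WT, with 103 of 119 probes below 0. Past the threshold were 8 (6.72% beside 3.48% of all probes), all lower: 5 probes of Rpl21, and 1 each of Rps9, Rpl12 and Rps12. Such genes have many processed copies, so that single probes are uncertain. Subunits of oxidative phosphorylation, the machine that mitochondrial translation helps to build, had a median of 0.0054 with 1 of 81 probes past the threshold, Cox7c at -0.44 ± 0.088 (adjusted p = 0.00377).

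The region before the start of a gene holds sites that nuclear factors read, and GABPA, NRF1 and YY1 are known for binding at many genes of mitochondrial proteins. For 56 member genes, RefSeq's table for the GRCr8 assembly gave the 250 bases before the start. Member genes were counted by a single window each, whereas the comparison counts every promoter entry. On both strands, the letters ccggaag (the core of GABPA and other ETS factors) were in 17.9% of them beside 7.27% of all 33469 promoters, gcgca and gcgc with any base between them (NRF1) in 12.5% beside 3.75%, aagatggc (YY1) in 5.36% beside 1.63% and gggcgg (SP1) in 42.9% beside 30.5%. A match of letters is a description and not a bound site. The core ccggaag and the other motifs were searched one by one and may overlap. The 9 probes of the 7 genes with the NRF1 letters had a median CR-L difference from WT of -0.072, beside 0.038 for the 59 probes of genes without them. With and without the other letters the medians were 0.034 and 0.0204 for ccggaag (11 and 57 probes), -0.083 and 0.032 for aagatggc (3 and 65) and 0.032 and 0.028 for gggcgg (30 and 38). None of these differences was tested. Of the genes past the threshold, Mrpl12, Mrpl14, Mrpl41 and Mrps14 have an entry, and none of these 4 windows holds the first 3 motifs. Mrpl32, below WT in both groups without passing, holds letters of NRF1 and of YY1, shown here in capitals in the window at chr17:55260401-55260650 on the forward strand.
Mrpl32 promoter: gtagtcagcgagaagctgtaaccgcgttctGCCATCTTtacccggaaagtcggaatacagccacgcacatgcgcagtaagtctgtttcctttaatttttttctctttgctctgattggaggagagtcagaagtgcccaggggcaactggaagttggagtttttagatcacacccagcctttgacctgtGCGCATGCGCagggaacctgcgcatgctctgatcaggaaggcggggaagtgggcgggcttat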

How the data were processed

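The authors deposited 1 Agilent scanner file per array. It gives the intensity of each spot and of its local background, read out by Agilent's own software (Feature Extraction 10.7.3.1, named in the submitters' processing notes), and per the file headers probe positions are of the rat build rn4. The deposited log10 ratio is of red over green. A deposited series table holds log2 values that tracked red intensity (lowest correlation 0.993), and how these were made is not given in the sources used here.

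From the scanner files, mean intensities were corrected with limma 3.58.1 in R 4.3.3 (normexp on the median local background, offset 50) and normalized by loess within arrays, with control and outlier spots at weight 0. Spots of one probe were averaged. Group means of all 31 arrays were compared per probe with lmFit and eBayes, two-sided, with Benjamini-Hochberg adjustment over 26721 probes that were well above background in red on at least 7 arrays, at a threshold of 0.05. The fit was tested on simulated data. Correlations of 2 probes used 100000 permutations, with a smallest possible p of 1e-05. The number of arrays limits the precision.

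Members and gene lists were chosen with earlier results of these data known. Named probes are those past the threshold, up to 3 per comparison, subunit and direction by the smallest unadjusted p under 0.05, genes whose probes split in sign with an unadjusted p under 0.05 at one of them, and per subunit the 2 steadiest and 2 most variable. Names were updated through a GRCr8 table, used for names and promoters alone. No p-value was computed over the member list.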

Additional observations from a re-analysis of the deposited data

Results flagged for a closer look

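Mrps34 in WT replicate 4, at -0.49, lay apart from the other 6 WT arrays, which ran from -0.25 to -0.076. The gap to its neighbour was 0.579 of the group's range, above Dixon's critical value for 7 arrays. This was 1 of 23 named probes examined in WT, and chance alone marks about 1 group in 20. The CR-L difference from WT of Mrps34 was 0.22 with this array and 0.18 without it (adjusted p = 0.0419 and 0.147). Groups of more than 10 arrays were not examined in this way, which leaves out the value of 4.49 for Mrps21 A_44_P544995 in CR-L replicate 9.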

How the results depend on the processing

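Over all 84 member probes, the count past the threshold in CR-L against WT, 7 as reported, was 4 (3 higher, 1 lower) with Agilent's log ratio, 3 (2 higher, 1 lower) with the red channel alone, 2 (1 higher, 1 lower) each with log ratios scaled to a common median absolute value (chosen after seeing the data), with the authors' series table and with only the 2 groups in the fit, and 0 with median centring in place of loess, where 98 of 26721 probes passed in all. In the fit of the 2 groups, with the series table and with red alone, the share of members was close to that of all probes (2.38% beside 2.37%, 2.38% beside 2.55% and 3.57% beside 3.24%). That share was 4.76% beside 3.63% with Agilent's log ratio and 2.38% beside 0.689% with the common scaling. The other settings gave counts of 5 to 10, or 5.95% to 11.9% of members, beside 1.78% to 5.09% of all probes. Leaving out each array in turn gave 2 (without WT replicate 2, 4 or 5, beside 1.94%, 1.86% and 2.02% of all probes) to 11 (without CR-L replicate 10, beside 4.84%). The count was 4 without WT replicate 6 or CR-L replicate 2, 7 or 12, beside 2.73%, 2.89% and 2.9% for these CR-L replicates. For WT replicate 6 the share of all probes was not computed, so its count has nothing to be read against. In CR against WT the count of 0 became 1 with probes well above background on all arrays (1.22% beside 0.98% of all probes). It became 5 with array weights (4 higher, 1 lower, 5.95% beside 1.67%) and 0 to 1 with each array left out. The share of all probes in those fits ran from 0.0748% to 0.924%, and was not computed without WT replicate 6. It stayed at 0 in CR-L against CR under every setting. Median centring moved the medians of large and small subunit to 0.152 and 0.163 in CR and 0.167 and 0.198 in CR-L, with all probes then at 0.067 and 0.069, and common scaling moved the small subunit in CR-L to 0.092.

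Differences below 0 that turned above it under median centring were, in CR, Mrpl20 (0.102), Mrpl32 (0.078), Mrpl35 A_44_P228313 (0.0026), Mrpl40 A_42_P719101 (0.096) and Mrps2 A_44_P606810 (0.121), and in CR-L Mrpl20 (0.080), Mrpl32 (0.095), Mrpl40 (0.057) and Mrps2 (0.071). The medians over all probes were then 0.067 in CR and 0.069 in CR-L. Mrpl40 A_42_P719101 also turned under common scaling (0.085 in CR, 0.038 in CR-L), array weights (0.0195 in CR), with each array left out (from -0.0458 to 0.0146 in CR, the latter without WT replicate 6) and with red alone (0.104 in CR-L). Mrpl35 A_44_P671449 turned to -0.000124 in CR under common scaling. The cause was not tested. With the replicate block, 5 member probes passed in CR-L against WT (5.95% beside 4.15% of all probes) and 0 in CR against WT (0% beside 0.988%). Samples share only a number: correlations of same-numbered arrays ran from -0.433 to 0.435, and 3 of 29 arrays were closest to their own number.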
